A study of Rattus norvegicus with 6 samples.

Results

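Aldh1a3 and 8 other genes of the retinoic acid pathway were described in rat nucleus pulposus cells (NPCs), the cells of the gel-like core of the intervertebral disc. The 9 genes were chosen by symbol for their part in making (Aldh1a1, Aldh1a2, Aldh1a3), carrying (Crabp1, Crabp2), sensing (Rara, Rarb, Rarg) or breaking down (Cyp26b1) retinoic acid, and all 9 were found among the 20264 rows of the combined count table. They were selected on a readout as well, since the difference of Aldh1a3 between the groups compared here was known when the list was drawn up. Fold changes of the 9 genes are therefore given as a description, and counts from the fit over all genes that include them support nothing here. The study asked which genes differ when FGF21, a secreted growth factor, is added to NPCs under oxidative stress.

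The TBHP group (n = 3) held wild type NPCs from the tail discs of male Sprague-Dawley rats, treated with tert-butyl hydroperoxide (TBHP), an oxidant used to bring on senescence. The TBHP+FGF21 group (n = 3) held the same kind of cells given TBHP together with recombinant rat FGF21, so the 2 groups share the oxidant and no library here comes from unstressed cells. The age of the rats, and whether each library had its own animal, are not stated in the labels. The series' design text calls the libraries of a group biological replicates. Within the TBHP+FGF21 group the treatment label runs from FGF21 in replicate 1 to FGF22 in replicate 2 and FGF23 in replicate 3. Libraries were grouped by their titles and by the design text of the series, which gives FGF21 for the whole group.

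Libraries held between 18277724 and 22426186 read counts, and 1 count was worth between 0.0436 and 0.0559 CPM, the unit of level used here, in which counts are divided by the library's total after TMM scaling for composition. Replicate 2 of the TBHP+FGF21 group stood apart from its group: over the genes tested, its mean Spearman correlation was 0.996 with the TBHP libraries and 0.990 with the other libraries of its own group. Replicate 3 of the TBHP group also lay nearer the other group, at 0.994 against 0.993. Of 13 markers listed for nucleus pulposus and notochordal cells, 12 were in the table, and the summed level of the list was 2769 to 3217 CPM in the TBHP group and 3139 to 4819 CPM in the TBHP+FGF21 group. Aggrecan (Acan) carried most of this sum. Of the 7 members tested, 4 had a log2 fold change above 0, among them Pax1 (0.54), Sox9 (0.56) and Acan (0.40), and 3 below 0 (Krt8 at -0.43, Cd24 at -0.55 and Col2a1 at -0.26), none with an adjusted p under 0.05 by edgeR, while Tbxt, Shh and Noto had no count in any library and Col2a1 had 68 counts in total. The annulus fibrosus and fibroblast list summed to between 39565 and 43807 CPM in the TBHP group and between 29326 and 41459 CPM in the TBHP+FGF21 group, nearly all from Col1a1 (log2 fold change -0.19). Of its 6 members tested, 4 lay above 0, among them Pdgfra (0.39) and Mkx (0.22), and Scx was at -0.39, again with no adjusted p under 0.05. Of the macrophage list, Ptprc and Adgre1 were at 0, while Cd68 had 212 counts in total. Cd14 carried most of that list's sum, at a mean of 32.3 CPM with TBHP alone and 28.7 CPM with FGF21 added. Of the endothelial list, Cdh5 and Kdr were at 0 and Tek had 38 counts in total. The macrophage sum was 32.2 to 37.9 CPM against 26.8 to 33.0 CPM, and the endothelial sum stayed at or below 0.527 CPM. The part of these differences in the results was not tested, and in bulk libraries a gene with fewer reads because fewer cells express it cannot be told apart from one with less RNA per cell.

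Retinoic acid is made from vitamin A (retinol) in successive oxidation steps, first to retinaldehyde and then, by the Aldh1a enzymes and without return, to the acid. In the cytoplasm it is bound by the Crabp proteins. In the nucleus it is the ligand of the retinoic acid receptors, which pair with retinoid X receptors on DNA and change the transcription of nearby genes, and Cyp26 enzymes oxidise it for removal. The pathway is best known for patterning the embryonic axis and limbs, and in cartilage an excess of retinoic acid lowers matrix production.

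Promoter sequence was read for these genes from RefSeq windows on the GRCr8 build, which run from 250 bases before to 50 bases after each annotated start. All 9 genes matched, with 10 windows, since Rarg has 2. The classical element of the receptor pair is a direct repeat of a hexamer. Here 4 hexamers were searched on both strands (AGGTCA as the consensus, then GGGTCA as well as AGTTCA along with GGTTCA), alone or as a direct repeat with 1, 2 or 5 bases between. Among the 9 genes, Rarb alone held a direct repeat in its window, with 5 bases between, at positions 25 to 41, where 1 is the first transcribed base and -1 the base before it. It is shown together with that of Cyp26a1, a gene of the breakdown branch outside the 9, whose window holds the same kind of repeat on the opposite strand, at positions -92 to -76. Capitals mark the hexamers.
Rarb (chr15:11336410-11336438, GRCr8, plus strand): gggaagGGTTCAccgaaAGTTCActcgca
Cyp26a1 (chr1:244883702-244883761, GRCr8, plus strand): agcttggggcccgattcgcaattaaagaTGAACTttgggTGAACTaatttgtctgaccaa
Such a repeat with 5 bases between was found in 0.382% of all 33469 windows, against 0.233% for 1 base and 0.17% for 2 bases, while a single hexamer was found in 44.4%. A match is a description of letters, not a site of binding.

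The 250 bases before the start of Aldh1a3 are shown because this gene had the largest difference of the 9. Capitals mark GC boxes (GGGCGG on either strand), which 33.1% of all windows hold.
Aldh1a3 (chr1:129427644-129427893, GRCr8, minus strand): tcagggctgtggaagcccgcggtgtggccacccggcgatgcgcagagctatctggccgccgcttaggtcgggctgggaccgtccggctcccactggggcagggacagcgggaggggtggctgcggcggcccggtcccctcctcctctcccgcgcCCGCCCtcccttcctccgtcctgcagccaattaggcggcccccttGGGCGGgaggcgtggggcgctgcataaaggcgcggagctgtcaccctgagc
The whole window of Aldh1a3 held 74.3% G or C, against a median of 51.7% over all windows, 31 CpG dinucleotides, and none of the 4 hexamers.

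Of the 3 retinaldehyde dehydrogenases that make retinoic acid, Aldh1a3 was the one with more than 2 reads in a library. With TBHP alone, replicates 1, 2 and 3 held 18, 32 and 28 counts, and with FGF21 added they held 90, 33 and 160 counts (all values below are in this order). As levels, these were 1.01, 1.45 and 1.31 CPM against 4.26, 1.58 and 6.98 CPM. Replicates 1 and 3 of the TBHP+FGF21 group lay far above every TBHP library, while replicate 2 lay just above the highest of them, by a single count before scaling. The 95% counting intervals of these neighbours, 1.09 to 2.22 CPM for replicate 2 of the TBHP+FGF21 group and 0.992 to 2.05 CPM for replicate 2 of the TBHP group, overlap over most of their length. The mean level was 1.26 ± 0.228 CPM with TBHP alone and 4.27 ± 2.70 CPM with FGF21 added (SD, n = 3 each).

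The log2 fold change of Aldh1a3 by edgeR was 1.76 (standard error 0.43, 95% interval 0.81 to 2.71), a 3.38-fold higher level with an interval of 1.75 to 6.52. Leaving out replicate 2 of the FGF21-treated libraries gave 2.16 (standard error 0.27), and leaving out replicate 3 gave 1.21. A different picture held for the other enzymes of the step. Aldh1a1, a retinaldehyde dehydrogenase abundant in liver and eye, had 0, 0 and 1 counts with TBHP alone and 2, 0 and 1 counts with FGF21 added. Aldh1a2, the main enzyme of the step in the embryo, had 2, 1 and 0 counts against 1, 0 and 2 counts. Neither was detectable above 2 counts in any library, and neither passed the filter on low counts. A count of 0 was taken to allow up to 3 counts, or 0.131 to 0.168 CPM in these libraries. The 95% counting intervals are wider, with upper ends of 0.167 to 0.206 CPM where Aldh1a1 or Aldh1a2 had 0 counts. Aldh1a7, a close rodent paralog of Aldh1a1, had 1, 6 and 5 counts against 5, 3 and 16 counts, with its highest count also in replicate 3 of the TBHP+FGF21 group. Reads that mapped to several places were counted for no gene (6.27% to 7.02% per library). Reads shared by Aldh1a1 and Aldh1a7 may therefore be missing from both.

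**Figure D1:**
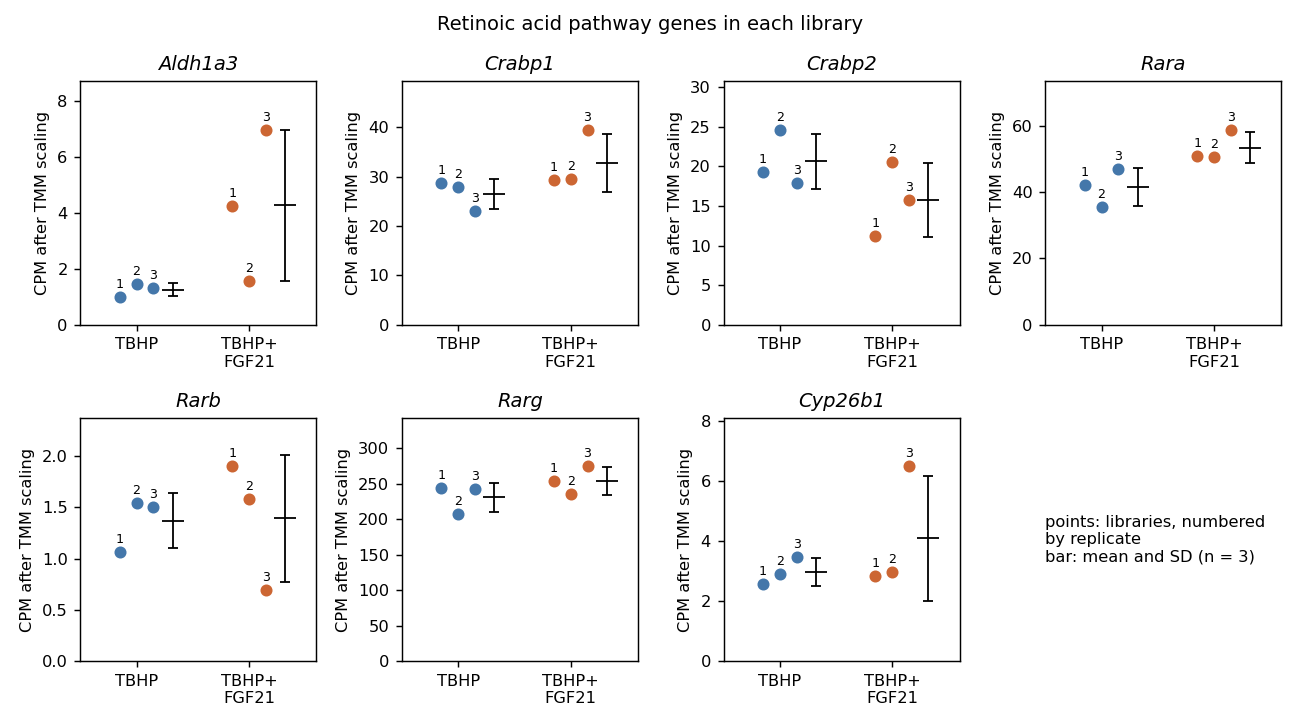
Level of the 7 genes that passed the filter on low counts, in CPM after TMM scaling (vertical axes, each from 0), in the 3 TBHP and 3 TBHP+FGF21 libraries. Points are libraries numbered by replicate, and bars are the mean and SD (n = 3). Aldh1a3 was at 4.26 and 6.98 CPM in replicates 1 and 3 of the TBHP+FGF21 group and at 1.58 CPM in replicate 2, and Rara lay above every TBHP library in all 3.

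The cytoplasmic binding proteins had fold changes of opposite sign. Crabp1, which binds retinoic acid and is linked to its metabolism, had 513, 614 and 492 counts with TBHP alone and 619, 617 and 906 counts with FGF21 added, or 28.7, 27.8 and 23.1 CPM against 29.3, 29.5 and 39.5 CPM. The groups did not overlap, but 2 of the 3 TBHP+FGF21 libraries lay within 1 CPM of the highest TBHP library. Its log2 fold change was 0.31 (standard error 0.14, 95% interval 0.0088 to 0.61), and leaving out replicate 3 of the TBHP+FGF21 group gave 0.16. Crabp2, which carries retinoic acid to its nuclear receptors, had 345, 543 and 383 counts against 236, 429 and 360 counts. In CPM this was 19.3, 24.6 and 17.95 against 11.2, 20.5 and 15.7. Replicates 1 and 3 of the TBHP+FGF21 group lay below every TBHP library, and replicate 2 lay among them, so the groups overlapped. The log2 fold change of Crabp2 was -0.38 (standard error 0.20, 95% interval -0.81 to 0.04). Leaving out replicate 2 of the FGF21-treated libraries gave -0.61, and leaving out replicate 1 gave -0.18.

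Within a library the ratio of the Crabp1 to the Crabp2 counts does not depend on scaling between libraries. It was 1.49, 1.13 and 1.28 in the TBHP group and 2.62, 1.44 and 2.52 in the TBHP+FGF21 group. Replicates 1 and 3 of the TBHP+FGF21 group again lay apart and replicate 2 fell within the range of the TBHP libraries. Means were 1.30 ± 0.179 and 2.19 ± 0.655 (SD, n = 3).

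**Figure D2:**
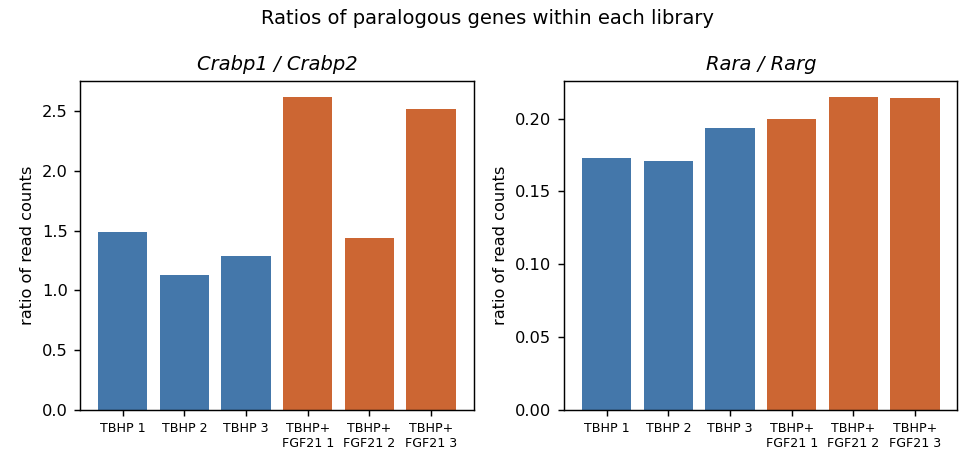
Ratio of read counts of Crabp1 to Crabp2 (left) and of Rara to Rarg (right) in each of the 6 libraries, both vertical axes from 0, bars in blue for TBHP and in orange for TBHP+FGF21. The Crabp ratio was 2.62 and 2.52 in replicates 1 and 3 of the TBHP+FGF21 group and between 1.13 and 1.49 in the other libraries, and the Rara to Rarg ratio was at most 0.193 in the TBHP group and at least 0.200 in the TBHP+FGF21 group.

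All 3 receptors were measured. Rara, the most widely expressed receptor of the family, had 754, 782 and 1000 counts with TBHP alone and 1075, 1056 and 1349 counts with FGF21 added. Its levels were 42.1, 35.5 and 46.9 CPM against 50.9, 50.5 and 58.8 CPM. The groups did not overlap, and replicate 2 of the TBHP+FGF21 group lay with replicate 1 of its group. The log2 fold change of Rara was 0.37 (standard error 0.12, 95% interval 0.11 to 0.62), and leaving out replicate 2 of the TBHP+FGF21 group gave 0.41. With other libraries left out it ranged from 0.26 (without replicate 2 of the TBHP group) to 0.47 (without replicate 3 of the TBHP group).

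Rarg, the receptor prominent in cartilage and skin, had 4360, 4573 and 5170 counts against 5373, 4910 and 6295 counts, or 244, 207 and 242 CPM against 255, 235 and 274 CPM. The groups overlapped, since replicate 2 of the TBHP+FGF21 group lay below replicates 1 and 3 of the TBHP group. For Rarg the log2 fold change was 0.14 (standard error 0.10, 95% interval -0.08 to 0.36). Within each library, Rara had 0.173, 0.171 and 0.193 counts per count of Rarg in the TBHP group and 0.200, 0.215 and 0.214 in the TBHP+FGF21 group. These ratios did not overlap, with means of 0.179 ± 0.012 and 0.210 ± 0.0084 (SD, n = 3), and the highest ratio of the 6 libraries was in replicate 2 of the TBHP+FGF21 group.

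Rarb, a classical target of retinoic acid through a repeat of the printed kind, had 19, 34 and 32 counts with TBHP alone and 40, 33 and 16 counts with FGF21 added. In CPM these were 1.06, 1.54 and 1.5 against 1.9, 1.58 and 0.70. The highest and the lowest library both belonged to the TBHP+FGF21 group. Replicate 3 of that group had the most Aldh1a3 and the least Rarb, while replicate 1, next in Aldh1a3, had the most Rarb. Rarb had a log2 fold change of 0.0032 (standard error 0.36), with a 95% interval of -0.78 to 0.78 that holds either sign. The direction of this value turned under 5 of 13 alternatives.

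The breakdown enzyme Cyp26b1, which hydroxylates retinoic acid and is itself induced by it in many tissues, had 46, 64 and 74 counts with TBHP alone and 60, 62 and 149 counts with FGF21 added. Its levels were 2.57, 2.90 and 3.47 CPM against 2.84, 2.97 and 6.50 CPM. Replicate 3 of the TBHP+FGF21 group alone stood above the TBHP libraries, and the other libraries of that group fell among them. The log2 fold change was 0.46 (standard error 0.30, 95% interval -0.20 to 1.13), and -0.035 without that library. The other breakdown enzymes had few reads: Cyp26a1 had 0, 1 and 3 counts against 0, 0 and 0 counts, and Cyp26c1 had 2, 2 and 0 counts against 0, 1 and 0 counts. The counts of Aldh1a3 per count of Cyp26b1 were 0.391, 0.5 and 0.378 in the TBHP group and 1.5, 0.532 and 1.07 in the TBHP+FGF21 group, so replicate 2 lay close to the highest TBHP library here too.

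**Figure D3:**
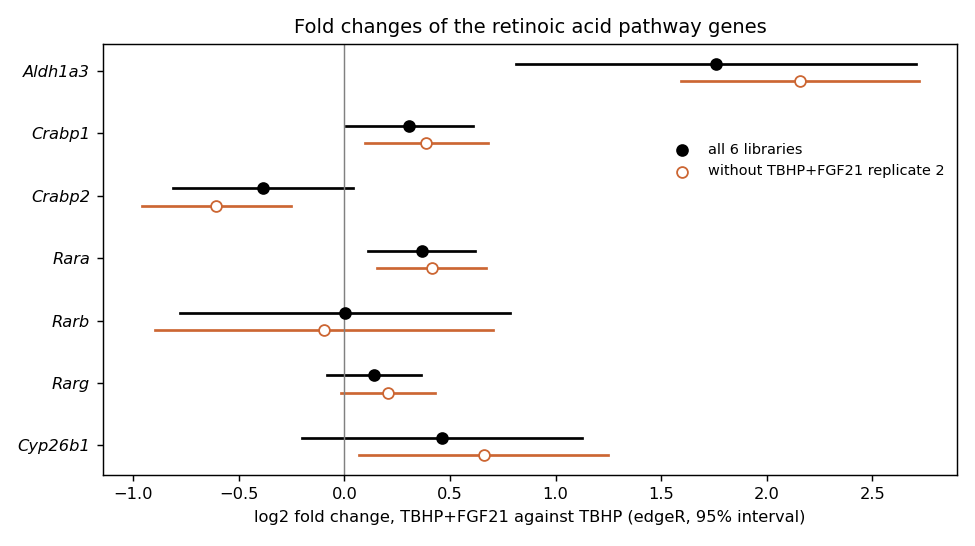
Log2 fold change of TBHP+FGF21 against TBHP by edgeR with its 95% interval for the 7 genes that passed the filter, in black for all 6 libraries and in orange with replicate 2 of the TBHP+FGF21 group left out. Aldh1a3 was at 1.76 and 2.16, Crabp2 at -0.38 and -0.61, and Rarb at 0.0032 and -0.10.

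Over the whole table (edgeR, quasi-likelihood F test, p adjusted by Benjamini-Hochberg), 1 of 11426 genes (0.00875%) had an adjusted p under 0.05, and it was Sirt1, none of the 9 genes. The Sirt1 counts of the TBHP libraries in the combined table were found in no row of the per-sample counts. With the per-sample counts no gene had an adjusted p under 0.05 (1082 unadjusted). Of these 9, 7 were tested, and the adjusted p of each was at least 0.553. An unadjusted p under 0.05 was found for 3 (Aldh1a3, Crabp1 and Rara, all higher in the TBHP+FGF21 group), beside 8.92% of all genes in either direction and 4.63% in the higher direction. The same 3 genes had groups that did not overlap, beside 4.9% of all genes with every TBHP+FGF21 library above every TBHP library. An absolute log2 fold change above 1 together with an unadjusted p under 0.05 was reached by Aldh1a3 alone of the 9, beside 0.534% of all genes. Since this comparison was known when the genes were chosen, nothing is read from these counts. Without replicate 2 of the TBHP+FGF21 group, 3 of the 7 had an adjusted p under 0.05, beside 7.5% of 11559 genes, and 5 had an unadjusted p under 0.05, beside 23.6%. That library was singled out for its likeness to the TBHP libraries in these same counts. Leaving it out therefore widens many differences, and nothing is read from these numbers either.

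The genes whose log2 CPM followed Aldh1a3 most closely over the 6 libraries were Plat (Pearson r 0.994), Vegfd (0.994), Tfap2a (0.994), Mmp3 (0.993) and Ptpre (0.990). These are correlations over 6 points that share their libraries and are led by replicates 1 and 3 of the TBHP+FGF21 group. Vegfd, a lymphatic growth factor, had 18, 30 and 27 counts with TBHP alone and 105, 27 and 171 counts with FGF21 added. Mmp3 (stromelysin), a matrix protease, was at 17.8, 22.2 and 21.5 CPM against 40.4, 20.9 and 61.7 CPM. In both genes replicate 2 of the TBHP+FGF21 group lay within the TBHP range. The log2 fold change was 1.91 for Vegfd and 1.00 for Mmp3, against 0.40 for Plat (tissue plasminogen activator), 0.40 for Tfap2a (a transcription factor) and 0.37 for Ptpre (a tyrosine phosphatase). Within the 9 genes, the correlation of Aldh1a3 with Crabp1 was 0.77, with Rara 0.73, with Cyp26b1 0.73, with Rarg 0.70, with Rarb -0.37 and with Crabp2 -0.68.

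The rest of the pathway was described with lists of 77 further genes, of which 69 were in the table and 43 were tested. Of the 43, 26 had a log2 fold change above 0 and 17 below, with a median of 0.06. Over all genes tested, 5592 lay above 0 and 5834 below, with a median of -0.0052. In the edgeR fit, 1 had an unadjusted p under 0.05, beside 8.92% of all genes, and none an adjusted p under 0.05. That gene was Rxra, the retinoid X receptor that pairs with Rara. It had 621, 617 and 702 counts with TBHP alone and 835, 740 and 1102 counts with FGF21 added, or 34.7, 27.98 and 32.9 CPM against 39.6, 35.4 and 48.0 CPM. All 3 TBHP+FGF21 libraries lay above the TBHP libraries, replicate 2 by the smallest margin. Its log2 fold change was 0.37 (standard error 0.13), and edgeR gave it an adjusted p of 0.553.

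Among partner receptors and co-regulators, 11 of 14 listed genes were tested and all 11 had a positive log2 fold change, between 0.05 and 0.37 with a median of 0.18. Of all 11426 genes tested, 5592 had a positive log2 fold change. Whether the 11 genes differ as a set was not tested. Of the 11, only Rxra passed an unadjusted p under 0.05. Upstream, retinol uptake and storage had 3 of 14 genes tested, and 8 of the rest had at most 3 counts over all 6 libraries together, among them the retinol transporter Stra6 and the storage enzyme Lrat. Scarb1, a lipoprotein receptor that also takes up carotenoids, had the most CPM of that list, with no correction for gene length here or in the other lists, at 63.3 ± 0.570 CPM with TBHP alone and 65.7 ± 5.61 CPM with FGF21 added (SD, n = 3), with a log2 fold change of 0.06. Retinol dehydrogenases and reductases, which set the supply of retinaldehyde, had 8 of 14 tested, 3 higher and 5 lower, with none passing an unadjusted p under 0.05. Adh4 had the most CPM of that list, at 57.7 ± 2.31 and 59.2 ± 5.27 CPM.

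Other aldehyde dehydrogenases had 11 of 16 genes tested, 5 higher and 6 lower, with a median log2 fold change of -0.02 and none passing an unadjusted p under 0.05. Aldh9a1, which acts on aminoaldehydes, had the most CPM of that list, at 220 ± 5.81 CPM with TBHP alone and 248 ± 24.3 CPM with FGF21 added. Aldh3a1, an enzyme for aromatic and lipid aldehydes, is named after its values were seen. It was at 9.10, 7.93 and 8.86 CPM with TBHP alone and 11.99, 5.84 and 27.2 CPM with FGF21 added, with replicates 1 and 3 above and replicate 2 below every TBHP library. Its log2 fold change was 0.80 (standard error 0.39). Genes known to respond to retinoic acid had 12 of 21 tested, 6 higher and 6 lower, between -0.50 and 0.42 with a median of 0.03 and none passing an unadjusted p under 0.05. Bhlhe40, a transcription factor with the most CPM of that list, was at 207 ± 8.60 and 196 ± 26.6 CPM, with a log2 fold change of -0.08.

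**Figure D4:**
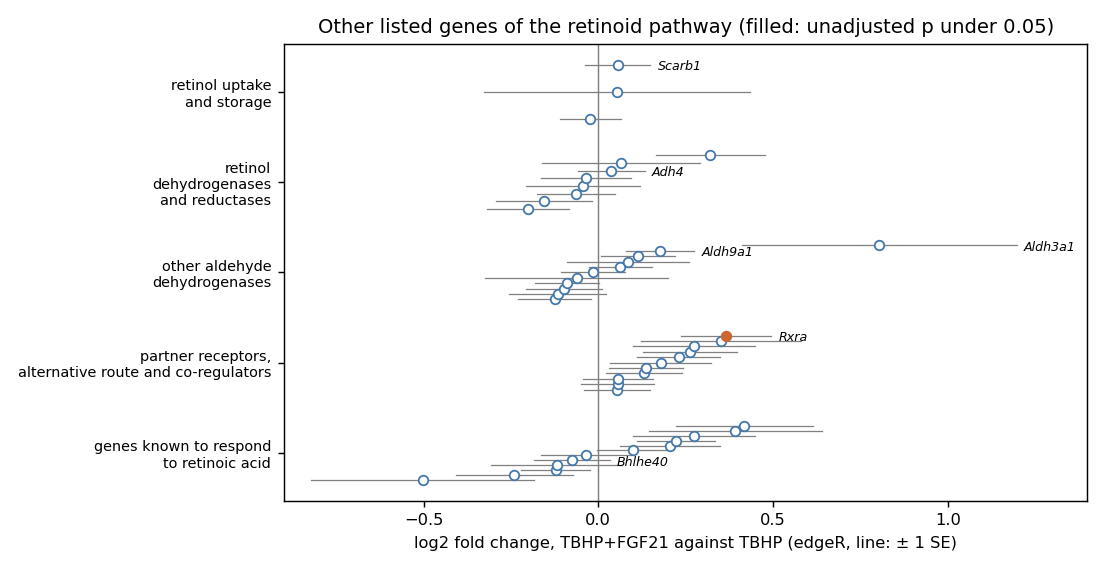
Log2 fold change of TBHP+FGF21 against TBHP by edgeR for the other listed genes of the pathway that passed the filter, by list, with lines of 1 standard error and the filled point marking the gene with an unadjusted p under 0.05 (Rxra, 0.37). All 11 partner receptors and co-regulators lay above 0, beside 5592 of all 11426 genes tested. The genes known to respond to retinoic acid lay on both sides, from -0.50 to 0.42.

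Without replicate 2 of the TBHP+FGF21 group, 44 of the further genes were tested, 9 were higher and 2 lower at an unadjusted p under 0.05, beside 23.6% of all genes. An adjusted p under 0.05 was found for 4 (Aldh3a1, Meis2, Rxra and Ppard, named after their values were seen), beside 7.5% of all genes. Replicate 2 was singled out because its counts lay near the TBHP libraries, so leaving it out widens many differences between the groups. Nothing is read from these counts. Meis2, a homeobox gene that responds to retinoic acid, was at 6.54, 6.98 and 7.41 CPM with TBHP alone and 10.2, 5.17 and 12.1 CPM with FGF21 added. Like Aldh3a1, it lay above the TBHP libraries in replicates 1 and 3 and below them in replicate 2. Ppard, a nuclear receptor that can also be driven by retinoic acid, was at 55.2, 44.3 and 54.4 CPM against 63.0, 50.2 and 71.2 CPM.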

How the data were processed

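RNA was measured in 6 libraries of cultured NPCs, 3 per group. The authors deposited unnormalized counts per Ensembl identifier for every library, as STAR writes them, with an unstranded and 2 strand columns, and a combined table of counts per symbol. The submitters' processing notes name STAR and featureCounts, and the genome build and tool versions are not given in the sources used here. In the combined table the authors deposited a few values that are not whole, so its unit was taken to be expected counts, rounded up. No value of the 9 genes was affected. The rows of 7 of them equal the unstranded counts of exactly 1 identifier in the per-sample files, while the low counts of Aldh1a1 and Aldh1a2 equal those of several.

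Counts were scaled by TMM and compared with edgeR 4.0.16 in R 4.3.3 (filterByExpr, minimum count 10 and minimum total 15, condition only, glmQLFit and glmQLFTest), p-values being adjusted over 11426 genes by Benjamini-Hochberg. A standard error is the log2 fold change over the square root of F. Likeness to Aldh1a3 used log2 CPM with a prior count of 2. Counting intervals are exact Poisson intervals at 95% and, like the limit of 3 counts, cover counting error only. The alternatives were the per-sample counts, DESeq2 1.42.0 (size factors in edgeR, and its Wald test), limma-voom (limma 3.58.1), a fit of all genes with no low-count filter, a replicate block, replicate 1 as the whole TBHP+FGF21 group, and leaving out each library. Each of the 15 pairings of libraries gave a chi-square per gene of at least 6.94, more than counting noise would. The deposited library kit is strand-specific by name, but both strand columns were near equal (ratios 1.01 to 1.02), so reads of overlapping antisense genes cannot be told apart.

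The 9 genes and the lists were chosen with earlier results of these data known. Named were the 9 genes, in each list the gene with the highest mean CPM and those with an unadjusted p under 0.05, and the 5 genes most like Aldh1a3. For 1 list the gene with the highest mean CPM is not reported here. Of the further genes listed, Rbpr2, Rdh5, Dhrs9, Adh1, Aldh4a1, Aldh18a1, Fabp5 and Ep300 were not analysed here. Protein sequences and transcript lengths were not used here, so levels of the 9 genes are not compared with each other, and the CPM that picked 1 gene per list also reflect gene length.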

Additional observations from a re-analysis of the deposited data

How the results depend on the processing

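The log2 fold change of Aldh1a3 stayed positive under all 13 alternatives (1.21 to 2.16), as did those of Crabp1 (0.15 to 0.39), Rara (0.26 to 0.47) and Rarg (0.07 to 0.20), and that of Crabp2 stayed negative (-0.88, with replicate 1 as the whole TBHP+FGF21 group, to -0.18). Rarb turned to -0.11 with limma-voom and -0.039 with the replicate block, and ranged from -0.28 to 0.34 when a library was left out. Cyp26b1 turned to -0.069 with replicate 1 as the whole group, and ranged from -0.035 to 0.68 when a library was left out. The cause was not tested.

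Genes with an adjusted p under 0.05, 1 as reported, numbered 0 with the per-sample counts (1082 unadjusted) and with limma-voom (996 unadjusted), 4 with the DESeq2 Wald test, 5 with no filter on low counts, 2 with the replicate block, 325 with replicate 1 as the whole group, and 0 to 867 with a library left out, the highest without replicate 2 of the TBHP+FGF21 group. Genes past the fold threshold, 61 as reported, numbered 146 with no filter, 189 with replicate 1 as the whole group, and 51 to 200 with a library left out. The values given above as reported, 1 and 61, are those of the main fit here and not counts from the paper. The paper lists more genes at an absolute logFC above 1 with p under 0.05. Of the 9 genes, 3 had an unadjusted p under 0.05 in the main fit. Under the alternatives this number ranged from 1 (without replicate 2 of the TBHP group, beside 2.92% of all genes tested) to 5 (without replicate 2 of the TBHP+FGF21 group, beside 23.6%). Other pathway genes with an unadjusted p under 0.05 numbered 1 in the main fit. They numbered 6 with no filter (beside 9.66% of all genes), 6 with the replicate block (14%), and 0 to 11 with a library left out (2.92% to 23.6%). Leaving out a library or using replicate 1 alone leaves fewer samples, and replicate 1 as a group is assumed to vary like the TBHP libraries. The deviations of same-numbered libraries from their group means correlated at -0.12, 0.21 and 0.15. Replicates 2 and 3 of the TBHP+FGF21 group correlated best with the TBHP library of the same number. Replicate 1 correlated best with replicate 3 of the TBHP group (0.18). These values do not settle whether the numbers are pairs, and the main fit did not use them as pairs. Depth limits Aldh1a1 and Aldh1a2, which had at most 2 counts, and gives Aldh1a3 and Rarb wide counting intervals.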

Other observations

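A direct repeat of the searched hexamers, at any of the 3 spacings, was found in the promoter window of 237 RefSeq genes. Only 38 of them were tested by edgeR, so the values below do not cover the rest. The log2 fold changes of the 38 were above 0 for 13 and below 0 for 25, with a median of -0.06. Over all genes tested, 5592 lay above 0 and 5834 below, with a median of -0.0052. An unadjusted p under 0.05 was found for 1 higher and 4 lower (13.2%), beside 8.92% of all genes. With 5 bases between the hexamers, 5 of 116 genes were tested, Rarb among them, and none had an unadjusted p under 0.05. The reads of Aldh1a3 in the per-sample strand columns were 7 and 11, 17 and 15, and 17 and 11 with TBHP alone. With FGF21 added they were 54 and 36, 24 and 9, and 84 and 76. The strand columns split the same reads, so they give no separate measure of the level. For Rarb the columns held 11 and 8, 24 and 10, and 17 and 15 with TBHP alone, and 13 and 27, 10 and 23, and 12 and 4 with FGF21 added.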
